A study of Mus musculus with 6 samples.

Results

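The genes described here are 9 genes of B lymphocytes and plasma cells, Blk, Cd22, Cd79a, Cd79b, Ms4a1, Pax5, Pou2af1, Jchain and Mzb1. They were followed in the cochlear lateral wall, the outer wall of the cochlear duct with the stria vascularis and the spiral ligament. All probe sets whose only annotated symbol is one of these names were taken, which gave 12 of the 45037 probe sets tested and 9 of 18193 genes. Cd22, Ms4a1 and Pax5 had 2 probe sets each, and the brighter one is called the first. Old CBA/CaJ mice of 1.5 years, with 3 arrays, were set against young adults of the same strain aged 1 to 3 months, with 3 arrays. Mice of both sexes were used, no animal carried an engineered allele or received an agent per the labels, and every RNA came from dissected lateral wall. Whether an array stands for a single mouse or for pooled mice is not stated. The sex-linked signals given below read as RNA of both sexes on every array but young replicate 2. Since the number of mice per array is unknown, the p-values measure only the scatter of these 6 samples, which may be technical. The question was whether B cell transcripts change with Cxcl13, the chemokine that attracts B cells, whose RNA is higher in old tissue. Values are log2 signals of one-colour Affymetrix arrays, means carry the SD with n = 3 arrays, and differences are old minus young with the standard error from limma.

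B cells recognise antigen through a surface immunoglobulin that signals by the paired chains Cd79a and Cd79b. Pax5 sets and holds B cell identity, and after activation some B cells become plasma cells, which shut Pax5 down and secrete antibody. The J chain, encoded by Jchain, joins the units of polymeric IgA and IgM, so Jchain with the IgA heavy chain gene Igha marks cells that make mucosal antibody. The inner ear holds resident macrophages, and lymphocytes are a small part of its immune cells.

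Cxcl13 rose in old tissue, and most of the B cell genes showed no difference past the test. Of the 12 probe sets, 1 passed a limma adjusted p of 0.05, that of Blk, which was higher in old tissue, and 11 did not pass. That is 8.33% of the 12, where 4.71% of all probe sets passed, 1.86% in the higher and 2.84% in the lower direction. The median difference was 0.00 over the 12 probe sets and 0.01 over all probe sets tested. The old values lay entirely above or below the young ones for 2 of the 12 probe sets, Blk and the first of Ms4a1, against 23.8% of all probe sets. The brighter Cxcl13 probe set had 7.98, 8.46 and 7.92 in old samples, against 5.49, 5.66 and 5.49 in young samples, a difference of 2.57 (95% interval 2.25 to 2.90, limma adjusted p = 0.000442). The highest upper bound of any B cell gene was 0.85, that of Blk, so each of the 12 intervals ended below the interval of this Cxcl13 probe set. The other Cxcl13 probe set differed by 0.92 (95% interval 0.61 to 1.23, limma adjusted p = 0.0108), which the interval of Blk overlaps.

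**Figure D1:**
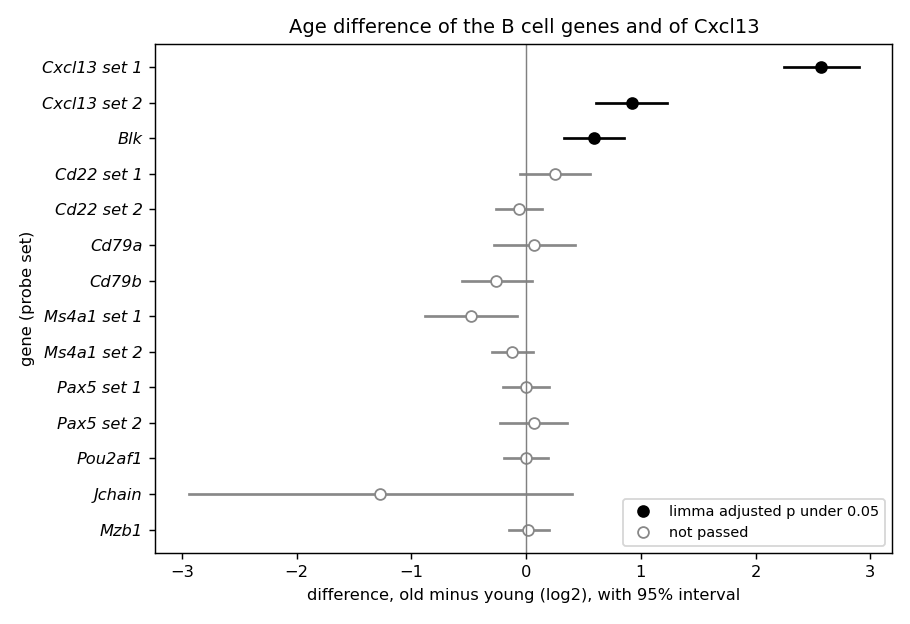
Difference in log2 signal, old minus young, on the x axis, for both probe sets of Cxcl13 and the 12 B cell and plasma cell probe sets on the y axis, with the 95% interval from limma. Both Cxcl13 probe sets and Blk (0.59) lie right of 0 with intervals that exclude it, and the interval of Jchain is the widest, -2.94 to 0.40.

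Most of the signals were low. Probe sets of odorant receptor genes, which are expected to be silent outside the nose, give a scale of how bright a probe set without its RNA can be. There were 44 of them for 39 genes, with a median mean signal of 4.19, a 95th percentile of 5.80 and a range of 3.09 to 5.96. Of the 12 B cell and plasma cell probe sets, 3 had a mean over the 6 arrays above 5.80, the first of Cd22 at 6.44, Jchain at 5.93 and Mzb1 at 6.96. The other 9, which include both chains of the receptor complex and Pax5, lay within the odorant receptor range, from 3.37 to 5.17. Probes differ in brightness, so a low signal does not show that a transcript is absent. In contrast, 13 of 13 defining genes of the lateral wall had signals above 5.80, and 0 of them passed the limma test between the ages (2 had an unadjusted p under 0.05). Over all genes at their brightest probe set, 4.78% passed. A dimmer probe set of Slc12a2, a chloride cotransporter gene among the 13, was lower in old tissue (-0.46, limma adjusted p = 0.0292), while its brightest differed by 0.01. In bulk tissue, fewer cells of a type and less RNA per cell cannot be told apart.

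**Figure D2:**
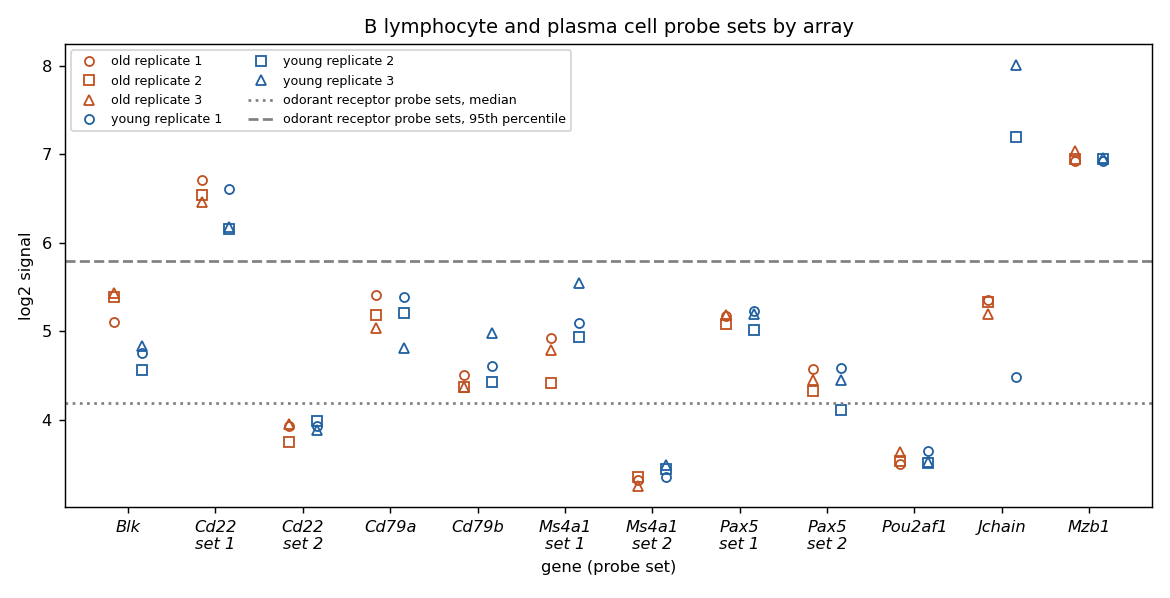
Log2 signal on the y axis for each of the 12 probe sets on the x axis, with 1 point per array, old left of young and symbols for the replicate number. The dashed and dotted lines are the 95th percentile (5.80) and the median (4.19) of odorant receptor probe sets, and only the first Cd22 set, Mzb1 and 2 young values of Jchain lie above the dashed line.

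The array medians of the deposited, already processed values were 6.26 to 6.30, which does not show how alike the samples were. Young replicate 2 stood apart in its sex-linked signals. Its Xist signal, from the RNA of the inactive X chromosome, was 6.06, where the other 5 arrays had 11.95 to 12.65. Its signal for the Y-linked gene Eif2s3y was 10.46, against 8.97 to 9.71 on the others. Both signals were thus high on those 5 arrays, as in RNA from mice of both sexes rather than from a single mouse. Young replicate 2, with low Xist and the highest Eif2s3y, read as RNA mainly of males. The effect of this difference in sex make-up on the age comparison, and on fits without young replicate 2, was not tested.

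Among the surface and signalling genes of the B cell receptor, Cd79a had 5.41, 5.18 and 5.04 in old samples, against 5.39, 5.21 and 4.81 in young samples. The ages overlapped in part, with the highest value in an old and the lowest in a young sample, and the difference was 0.07 ± 0.16 (95% interval -0.28 to 0.43, limma adjusted p = 0.871). Its partner Cd79b had 4.51, 4.37 and 4.37 in old samples, against 4.61, 4.43 and 4.98 in young samples. Young replicate 3 was the highest, and the difference of -0.26 ± 0.14 did not pass (95% interval -0.56 to 0.05, limma adjusted p = 0.359). Cd22, an inhibitory receptor that binds sialic acid, had 6.71, 6.54 and 6.46 in old samples, against 6.61, 6.16 and 6.18 in young samples by its first probe set. One young array reached the old values, and the difference was 0.25 ± 0.13 (95% interval -0.05 to 0.56, limma adjusted p = 0.357). The second Cd22 probe set was dim, at 3.88 ± 0.11 in old and 3.94 ± 0.05 in young samples. Since only 1 of 2 probe sets was above the odorant receptor range, the signal of Cd22 rests on that probe set alone.

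Blk, a kinase of the Src family that acts beside the receptor in B cells and is also made by some gamma-delta T cells in mice, was the gene that passed. It had 5.11, 5.39 and 5.43 in old samples, against 4.76, 4.56 and 4.84 in young samples. Every old value was above every young one, by a difference of 0.59 ± 0.11, or 1.51-fold (95% interval 0.33 to 0.85, limma adjusted p = 0.0273). Its mean signal of 5.02 was within the odorant receptor range, in which 0 of 44 probe sets passed (limma). Of all 19533 probe sets at or below 5.80, 1.62% passed. The call was lost on leaving out old replicate 2 (limma adjusted p = 0.0821), old replicate 3 (0.119), young replicate 1 (0.0656) or young replicate 3 (0.0686), and the difference was 0.53 to 0.65 in those fits.

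Ms4a1, which encodes the surface protein CD20 of B cells before the plasma cell stage, leaned the other way. Its first probe set had 4.93, 4.42 and 4.79 in old samples, against 5.09, 4.94 and 5.55 in young samples. All old values were below all young ones, by a narrow margin, and the difference of -0.48 ± 0.18 did not pass (95% interval -0.88 to -0.08, limma adjusted p = 0.180). Leaving out young replicate 2 gave -0.61 and leaving out young replicate 3 gave -0.30 (limma adjusted p = 0.0980 and 0.430). The second Ms4a1 probe set, at 3.31 ± 0.05 in old and 3.43 ± 0.07 in young samples, also did not pass.

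The regulators of the lineage showed no age difference past the test. Pax5 had 5.17, 5.08 and 5.19 in old samples, against 5.23, 5.02 and 5.20 in young samples by its first probe set. The difference was 0.00 (95% interval -0.20 to 0.20, limma adjusted p = 0.990). Its second probe set differed by 0.07 (95% interval -0.23 to 0.36). Pou2af1, a coactivator that works with octamer-binding factors in B cells, had 3.50, 3.54 and 3.64 in old samples, against 3.65, 3.51 and 3.52 in young samples. All 6 values were below the odorant receptor median of 4.19, and the difference was 0.00 (95% interval -0.19 to 0.19).

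Further genes of mature B cells gave the same picture. Of 19 measured genes of this list, which holds among others the receptors for Cxcl13 and for survival factors, 0 passed the limma test in either direction, and 2 had an unadjusted p under 0.05, both lower in old tissue. Over all genes at 1 probe set each, 4.78% passed. The median difference of the list was -0.03, against 0.03 over all genes, and 14 of the 19 had a mean at or below 5.80. Cxcr5, the receptor for Cxcl13, had 4.25, 4.19 and 4.09 in old samples, against 4.26, 4.0 and 4.14 in young samples (difference 0.04 ± 0.09, limma adjusted p = 0.874). The receptor signal thus lay near the odorant receptor median in both ages. Ebf1, a factor that opens the B cell program with Pax5 and that mesenchymal cells also make, was the brightest gene of the list. It had 10.05, 10.48 and 10.28 in old samples, against 10.85, 10.50 and 11.01 in young samples, a difference of -0.52 ± 0.15 that did not pass (limma adjusted p = 0.0971). It passed without young replicate 2 (-0.66, limma adjusted p = 0.0296) and with array weights (-0.56, adjusted p = 0.0325), and under no other alternative. The dimmer Ebf1 probe sets differed by -0.37, -0.23, -0.22 and -0.03 and did not pass. With its probe sets averaged, the difference of Ebf1 was -0.27 (limma adjusted p = 0.142). Bach2, a repressor that holds B cells back from the plasma cell state, was at 6.92 ± 0.32 in old and 7.50 ± 0.17 in young samples by its brightest probe set (limma adjusted p = 0.0877). A dimmer Bach2 probe set differed by -0.45 and passed (limma adjusted p = 0.0342), and another dimmer one, at -0.05, did not.

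The start regions of 3 genes are shown because they stand for the 3 patterns above and below, a receptor chain within the odorant receptor range, the antibody-joining chain that varied most, and the chemokine that rose. The sequences are the 250 bases before each RefSeq gene start on GRCm38.p6, on the strand of the gene, and 5 of the 9 B cell and plasma cell genes had an entry. Cd79a is a classical target of Ebf1, Pax5 and ETS factors. The windows are Cd79a at chr7:24897247-24897496 on the plus strand, Jchain at chr5:88527898-88528147 on the minus strand and Cxcl13 at chr5:95956689-95956938 on the plus strand. Capitals mark matches to the ETS core AGGAAGT in Cd79a and the TATA box TATAAA in Cxcl13.
Cd79a: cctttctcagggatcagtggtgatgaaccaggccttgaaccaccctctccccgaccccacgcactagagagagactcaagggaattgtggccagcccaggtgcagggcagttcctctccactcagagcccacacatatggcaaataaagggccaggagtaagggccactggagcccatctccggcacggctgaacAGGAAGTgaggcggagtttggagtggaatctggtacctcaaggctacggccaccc
Jchain: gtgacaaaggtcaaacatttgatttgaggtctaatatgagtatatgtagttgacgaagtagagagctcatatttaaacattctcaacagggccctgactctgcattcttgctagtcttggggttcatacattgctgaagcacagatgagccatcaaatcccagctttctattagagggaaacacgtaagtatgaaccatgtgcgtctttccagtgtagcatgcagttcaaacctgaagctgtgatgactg
Cxcl13: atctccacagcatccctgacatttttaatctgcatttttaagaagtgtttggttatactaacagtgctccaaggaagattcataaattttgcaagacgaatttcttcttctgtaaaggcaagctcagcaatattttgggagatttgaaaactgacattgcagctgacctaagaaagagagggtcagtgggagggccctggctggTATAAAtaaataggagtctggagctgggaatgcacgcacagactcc
Both strands were searched for 4 motifs, which did not overlap one another in these windows. AGGAAGT was found in 7.69% and TATAAA in 12.4% of 32851 windows of this length. The octamer ATGCAAAT, the element at which Pou2af1 acts, was found in 1.6% of all windows and in none of the 5 windows or that of Cxcl13. The palindrome bound by Ebf1, TCCC and GGGA with any 2 bases between them, was found in 0.779% of all windows, and of these 6 in Cd22 alone, 49 to 40 bases before the start. A match describes letters and is not a measured binding site. A window without an exact match can still hold a variant of the motif.

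Of the plasma cell genes, Jchain had a wide spread among the young samples and Mzb1 did not. Jchain had 5.36, 5.33 and 5.20 in old samples, against 4.49, 7.20 and 8.01 in young samples. Young replicates 2 and 3 were above all old samples, and young replicate 1 was below them. The old samples spanned 0.16 and the young ones 3.52 on the log2 scale. By its SD among young arrays, 1.84, Jchain ranked 5 of 45037 probe sets, and by its SD among old arrays, 0.09, it ranked 24533. The difference between the ages was -1.27 ± 0.73 and did not pass (95% interval -2.94 to 0.40, limma adjusted p = 0.409). It was -2.31 and past the threshold without young replicate 1 (limma adjusted p = 0.00549). Neither other young array had this effect, and it was -0.95 on leaving out young replicate 2 or -0.55 on leaving out young replicate 3 (adjusted p = 0.580 and 0.787).

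Igha, the constant region of IgA heavy chains and by the likeness rule the gene nearest to Jchain (r = 0.99 over the 6 arrays), was distributed in the same way. The probe set that stands for it had 6.99, 7.06 and 6.80 in old samples, against 6.37, 9.40 and 9.79 in young samples. Another had 6.98, 7.17 and 6.80 in old samples, against 5.93, 9.5 and 10.03 in young samples. In all 3 Igha probe sets, young replicates 2 and 3 were above every old sample and young replicate 1 below, and 0 of the 3 passed (limma adjusted p = 0.301, 0.422 and 0.454, 0 with an unadjusted p under 0.05). Without young replicate 1, the difference of the first was -2.64 (limma adjusted p = 0.00122), and without young replicate 2 it was -1.13 (0.488). With array weights over all arrays, the first also passed (-2.13, limma adjusted p = 0.0444). Probe sets for antibody chains can share signal among similar segments, so which heavy chain was measured is uncertain.

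Antibody genes as a class had this spread only in part. Of 56 probe sets annotated to immunoglobulin segments alone, 6 were among the 20 with the highest SD over young arrays and 0 among the 20 with the highest SD over old arrays. This class was chosen after its values were seen, so these counts describe the arrays and carry no test. Those 6 were the 3 of Igha and 3 whose annotation lists several kappa chain segments, so that they name no single gene. The brightest of these kappa probe sets had 8.52, 8.52 and 8.36 in old samples, against 7.69, 9.86 and 10.35 in young samples. None of the 56 passed between the ages by limma (3 had an unadjusted p under 0.05), and their median difference was -0.06. At or below 5.80 were 45 of the 56. Ighg3, for an IgG heavy chain, was at 6.10 ± 0.18 in old and 6.25 ± 0.14 in young samples (limma adjusted p = 0.543). Ighm, for the IgM heavy chain and named after its values were seen, was at 8.13 ± 0.46 in old and 8.11 ± 0.22 in young samples by its brightest probe set (limma adjusted p = 0.974). A dimmer Ighm probe set had 6.25, 5.98 and 6.24 in old samples, against 5.82, 6.24 and 6.63 in young samples (limma adjusted p = 0.894). Its SD in young samples, 0.41, ranked 711 of 45037. The kappa and Igha signals thus ordered the young samples as Jchain did, as did this Ighm probe set over a narrower range. Some other Ighm probe sets had this order too, with young values of 4.83, 4.92 and 5.30 or of 4.25, 4.43 and 4.53. The rest did not, among them the brightest, with 8.07, 7.91 and 8.35 in young samples. The SDs of Ighm and Ighg3 in young samples were smaller than those of Igha.

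**Figure D3:**
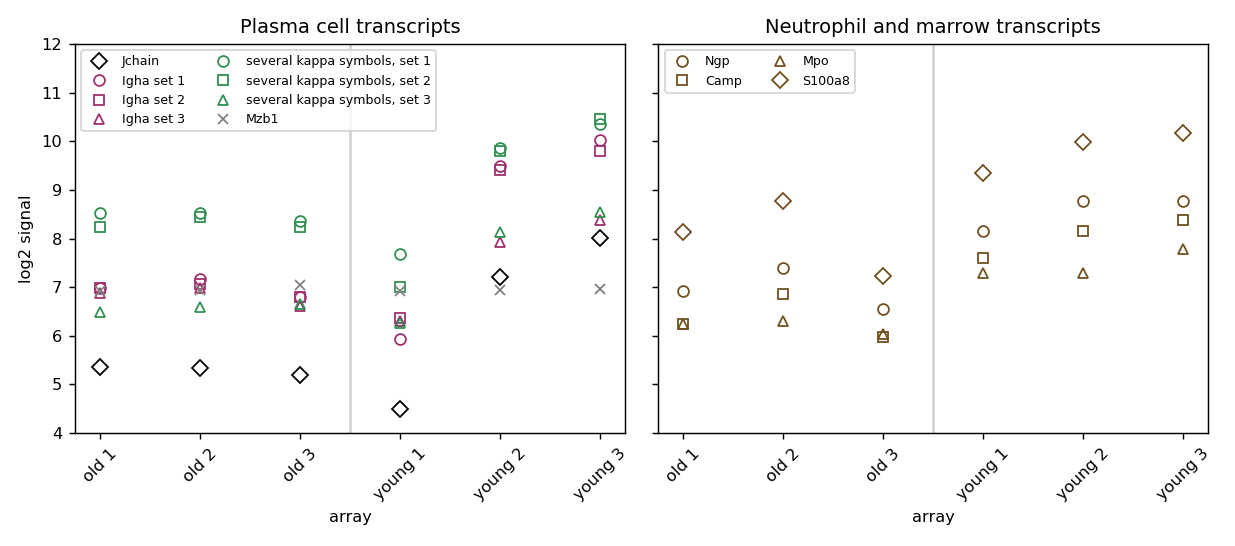
Log2 signal on the y axis for each of the 6 arrays on the x axis, old left of young. In the left panel, Jchain, Igha and the kappa probe sets are highest in young replicates 2 and 3 and lowest in young replicate 1, and Mzb1 is flat, and in the right panel the neutrophil and marrow genes are higher in all young arrays.

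Mzb1, an endoplasmic reticulum protein that helps B cells and plasma cells assemble antibody, did not share this spread. It had 6.92, 6.95 and 7.04 in old samples, against 6.93, 6.95 and 6.96 in young samples. The young arrays spanned 0.03, and the difference was 0.02 (95% interval -0.15 to 0.20, limma adjusted p = 0.921). Of 14 further genes of plasma cells and secretory load, 0 passed by limma and 2 had an unadjusted p under 0.05, both higher in old tissue. The median difference of this list was -0.01, against 0.03 over all genes, of which 4.78% passed by limma. Eaf2, an elongation factor partner, was at 6.89 ± 0.12 in old and 6.34 ± 0.31 in young samples (limma adjusted p = 0.0753), and it passed without young replicate 2 (0.70, adjusted p = 0.0196). Sdc1, the syndecan used as a plasma cell surface marker and also made by epithelia, was at 6.28 ± 0.10 in old and 6.01 ± 0.18 in young samples (limma adjusted p = 0.208). Its dimmer probe sets differed by -0.09, 0.00 and 0.22 and did not pass. With its probe sets averaged, the difference of Sdc1 was 0.10 (limma adjusted p = 0.524). Of the 14, 10 were above 5.80, and many of them serve secretion in any cell.

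Neutrophil and marrow transcripts moved with part of this pattern. Of 15 measured marrow and neutrophil genes, 10 were lower in old tissue and 0 higher, where 2.33% of all genes were lower. Their summed signal was 9.97 to 10.81 in old and 11.33 to 11.95 in young samples on the log2 scale, and 5 of the 15 were at or below 5.80. Ngp, a granule protein of neutrophil precursors, had 6.92, 7.39 and 6.55 in old samples, against 8.15, 8.78 and 8.78 in young samples (limma adjusted p = 0.00908). Camp, Mpo and Mmp8 differed by -1.68, -1.27 and -0.54 and S100a8 by -1.78 (limma adjusted p = 0.0102, 0.00393, 0.0169 and 0.0304). Young replicate 1 was the lowest young array for Ngp, Camp and S100a8, as it was for Jchain, but it stayed above the old arrays for these genes and below them for Jchain. For Mpo and Mmp8, young replicate 2 was the lowest young array, at 7.29 and 5.21, against 7.30 and 5.27 in young replicate 1. Leaving out young replicate 3 reduced the 10 lower genes to 1, and leaving out old replicate 1 or old replicate 3 reduced them to 3. The call of S100a8 was lost without young replicate 2 (-1.71, limma adjusted p = 0.0560), and also without old replicate 1, old replicate 3 or young replicate 3 (up to 0.128). Of 8 erythroid genes, the anion exchanger gene Slc4a1 was lower (-1.23, limma adjusted p = 0.0219), a call lost on leaving out any array but young replicate 2 (adjusted p up to 0.0914). Slc4a1 had 6.92, 6.09 and 7.04 in young samples, lowest in young replicate 2. The part of marrow or other adjoining tissue in the Jchain, Igha and Ms4a1 values was not tested.

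Among B cell attractants and survival factors, 3 of 11 measured genes were higher in old tissue and 0 lower, where 2.45% of all genes were higher. These were Cxcl13, Cxcr4 and Il7. Il7, a growth factor of lymphocyte precursors made by stromal cells, had 8.58, 8.28 and 8.21 in old samples, against 6.64, 7.64 and 7.34 in young samples. The groups did not overlap, and the difference was 1.15 ± 0.23 (limma adjusted p = 0.0295). Cxcr4, the receptor for Cxcl12 on many blood-derived and endothelial cells, had 6.90, 6.91 and 6.88 in old samples, against 5.66, 6.17 and 5.22 in young samples (1.21 ± 0.20, limma adjusted p = 0.0157). Tnfsf13b, which encodes the B cell survival factor BAFF, had 6.04, 5.86 and 5.75 in old samples, against 6.16, 6.09 and 5.66 in young samples, and did not pass (limma adjusted p = 0.824). Leaving out old replicate 1 or old replicate 3 left 1 gene of this list higher. The call of Il7 was lost without any one of the 3 old arrays or without young replicate 3 (limma adjusted p up to 0.0967), and that of Cxcr4 without old replicate 1, old replicate 3 or young replicate 1 (up to 0.0646).

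**Figure D4:**
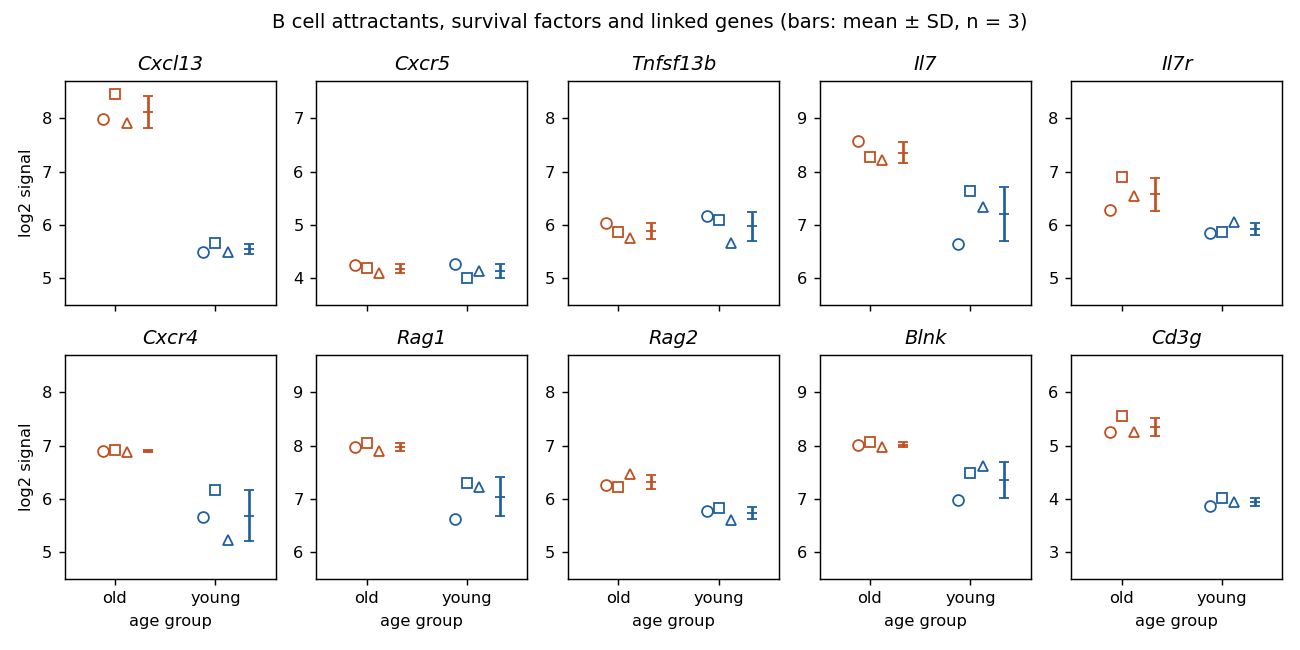
Log2 signal on the y axis by age group on the x axis, old left of young, with circles, squares and triangles for replicates 1, 2 and 3 and bars for the mean ± SD. The y axes span the same number of log2 units, and the old values lie above the young ones for every gene shown except Cxcr5 and Tnfsf13b, which overlap.

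Genes of lymphocyte precursors were split. Of 9 measured genes of early B cells, 3 were higher in old tissue, Rag1, Rag2 and Il7r, and 6 did not pass. Over all genes, 2.45% were higher. Rag1 and Rag2, the recombinase subunits that cut antigen receptor genes in developing B and T cells, are neighbours on 1 chromosome. Rag1 had 7.98, 8.04 and 7.90 in old samples, against 6.62, 7.29 and 7.22 in young samples (0.93 ± 0.16, limma adjusted p = 0.0197). Rag2 had 6.27, 6.22 and 6.47 in old samples, against 5.77, 5.83 and 5.61 in young samples (0.58 ± 0.10, limma adjusted p = 0.0170). Both were above every young value in every old sample. Il7r, the receptor for Il7 on lymphocyte precursors and T cells, had 6.27, 6.90 and 6.55 in old samples, against 5.85, 5.87 and 6.05 in young samples (0.65 ± 0.15, limma adjusted p = 0.0470). Of the 9, 6 were above 5.80 by their mean over the arrays. Among the 6 that did not pass, all named after their values were seen, Vpreb3, Arpp21 and Lef1 had means of 6.41, 6.72 and 8.76 in old and 6.50, 6.67 and 8.65 in young samples. The surrogate light chain genes Vpreb1 and Igll1 and the nucleotide transferase gene Dntt were at or below 5.80, with means of 4.73, 5.14 and 5.08 in old and 4.78, 5.22 and 4.97 in young samples. The call of Il7r was lost on leaving out any array but old replicate 1 (limma adjusted p = 0.0808 without young replicate 2 and up to 0.146) and with its probe sets averaged (0.0776). That of Rag1 was lost without any one old array or without young replicate 3 (adjusted p up to 0.0705), and that of Rag2 without old replicate 3 or young replicate 3 (up to 0.0794). No gene of the list was called without old replicate 3 or without young replicate 3, and 1 was called without old replicate 2.

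Of 17 genes that signal below the B cell receptor, most of which other cells also use, Blnk was higher in old tissue and 0 were lower. Over all genes, 2.45% were higher and 2.33% lower. Blnk, the adaptor that links the kinase Syk to its targets and that macrophages also make, had 8.02, 8.07 and 7.97 in old samples, against 6.98, 7.49 and 7.61 in young samples (0.66 ± 0.15, limma adjusted p = 0.0464). Its call was lost without any one old array or without young replicate 3 (adjusted p up to 0.137). Macrophage genes were split. Of 14, 3 were higher, Lyz2, Cd68 and Clec7a, and 10 did not pass. Mertk was lower, a call lost on leaving out any array but young replicate 2 (limma adjusted p up to 0.0812). The median difference of the 14 was 0.23, against 0.03 over all genes. Their summed signal was 13.26 to 13.39 in old and 12.79 to 12.96 in young samples, with 1 of the 14 at or below 5.80. This sum weighs bright genes most, and the brightest, Lyz2, was at 12.02 ± 0.08 in old and 10.46 ± 0.31 in young samples. A sum without Lyz2 was not made. The part of macrophages in the Blnk value was not tested. Of 10 dendritic cell genes, some of which B cells share, 0 passed by limma (2 had an unadjusted p under 0.05).

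T cell genes offer the nearest comparison within the lymphocytes. Of 13 measured, 2 were higher in old tissue and 0 lower, where 2.45% of all genes were higher and 2.33% lower. The median difference was 0.05, against 0.00 for the 9 B cell and plasma cell genes at 1 probe set each and 0.03 over all genes. Cd3g, a chain of the T cell receptor complex, had 5.25, 5.55 and 5.25 in old samples, against 3.86, 4.01 and 3.94 in young samples (1.41 ± 0.10, limma adjusted p = 0.000985), and its mean lay at or below 5.80. Its neighbour on the chromosome, Cd3d, was at 6.20 ± 0.18 in old and 5.75 ± 0.06 in young samples (limma adjusted p = 0.0467), a call lost on leaving out any array (adjusted p = 0.0761 without young replicate 2 and up to 0.144). Cd3e, a further chain of the complex, had 6.87, 6.76 and 6.74 in old samples, against 6.87, 6.54 and 6.66 in young samples, and did not pass (limma adjusted p = 0.686). The T cell chains thus differed among themselves as the B cell genes did, and the difference between the lymphocyte lists was not tested.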

How the data were processed

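RNA of 6 lateral wall samples was labelled with a 3′ kit, which reads mainly the ends of transcripts, and each was hybridised to 1 array, per the labels' protocols. Expression Console of Affymetrix, MAS5 and RMA appear in the submitters' processing notes, and which of them made the table is not given in the sources used here. The deposited table holds log2 values, made by the authors, for 45101 probe sets, and no scanner files were used here, so signal over background was not measured and the number of arrays limits the precision.

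The 64 control probe sets were left out. GEO's platform annotation gave 34945 probe sets 1 symbol, 932 several and 9160 none, and none was named from several symbols. Log2 values were fitted with limma 3.58.1 in R 4.3.3 (no trend, not robust, age as the only term), with Benjamini-Hochberg adjustment over all 45037 probe sets. A gene in a list is its brightest probe set. The fit was tested on simulated data.

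The genes and the 13 lists, with 157 of 187 genes measured, were chosen with earlier results of these data known. Named were every probe set of the 9 genes, up to 4 passing genes per list (otherwise the 2 with the smallest p), and further fixed genes whatever their result, where measured and reportable. Likeness was Pearson's r over 6 arrays among genes above the median signal of 6.28 with a range of at least 0.5, for Cd79a and Jchain. Alternatives were other normalization, a dim filter, variance trend, array weights, a replicate block, probe set means and leaving out each array. List counts without each array were added after seeing the data. The annotation's assembly of the windows is GRCm38.p6.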

Additional observations from a re-analysis of the deposited data

How the results depend on the processing

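Cxcl13 was higher in old tissue and past the threshold under all 13 alternatives, with differences of 1.75 to 2.67. Among the 12 B cell and plasma cell probe sets, the count that passed was 1 in most settings and 0 over probe sets above the median signal, where Blk was not tested. Leaving out 1 array gave 0 to 1, and without young replicate 1 the 1 was Jchain and not Blk. Over all probe sets the count was 2119, and it was 4480 with array weights, 905 genes when probe sets were averaged by gene, and 515 to 3393 on leaving out 1 array. The cause of these changes was not tested. With the replicate number as a block, 1932 probe sets and 1 of the 12 passed. The numbers are not stated to pair samples, so they were not treated as pairs in the main fit. Deviations from the group means correlated at 0.14, 0.08 and 0.01 between arrays of the same number, and old replicate 3 did not correlate best with its own number. The block ended the call of Cd3d (adjusted p = 0.0530). Small differences that did not pass changed sign when 1 array was left out. That of Cd79a ran over -0.09 to 0.20, with -0.03 without old replicate 1 and -0.09 without young replicate 3. The second Pax5 probe set ran over -0.07 to 0.17 (-0.07 without young replicate 2) and Mzb1 over -0.01 to 0.05 (-0.01 without old replicate 3). Kcnj10 ran over -0.08 to 0.04 (0.04 without young replicate 3), Tnfsf13b over -0.24 to 0.01 (0.01 without young replicate 1) and Cxcr5 over -0.02 to 0.11 (-0.02 without young replicate 2).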

Other observations

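The genes nearest to Cd79a over the 6 arrays, among 3006 genes bright and variable enough, were Rabggtb, 2410004B18Rik, Pcdh18, Ttll4 and Nfat5, with r of 0.93, 0.91, 0.91, 0.86 and 0.86. None of these 5 is on the B cell lists. After Igha, the genes nearest to Jchain were Dusp18, Wdr74, C1qtnf4 and Uxt, with r of 0.98, 0.97, 0.96 and 0.95, and none of these 4 is on the immunoglobulin or plasma cell lists. Dusp18 had 7.87, 7.88 and 7.91 in old samples, against 7.83, 8.30 and 8.37 in young samples. With 6 arrays and a search over 3006 genes, such values describe the arrays and carry no test.

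The light chain gene segment Igkv8-30, singled out after its values were seen, had 4.59, 4.27 and 4.51 in old samples, against 4.55, 5.68 and 6.35 in young samples (difference -1.07, limma adjusted p = 0.154). Its mean over the arrays, 4.99, lay within the odorant receptor range, and its probe set can share signal with similar segments.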
